A study of Mus musculus with 36 samples.

Results

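Hippocampal slices of wild-type (C57BL/6) mice given vehicle were compared between theta-burst stimulation and a sham procedure. Libraries labelled wild-type and vehicle were taken, and a stimulated and a sham slice were paired by the mouse number in the labels. This gave 8 of the 36 libraries of the series, from 4 of its 18 mice (Mouse1509, Mouse1513, Mouse1522 and Mouse1524), with 1 sham and 1 stimulated slice per mouse. The mice had been dosed by oral gavage with vehicle for 3 months and were 13 months old at the start and 16 months old at the end. Slices came from the right hippocampus. Stimulation was 3 rounds of 10 bursts, each burst holding 4 stimuli at 100 Hz, with 200 ms between bursts, and the sham slices were handled for as long without it. All slices were frozen at once after the procedure. RNA was depleted of ribosomal RNA and sequenced with a strand-marking kit from 200 ng of total RNA. The other mice of the series carried the T41B genotype (a Thy1-driven human APP transgene with London and Swedish mutations, Line 41, an amyloid model) or received BD10-2, a small-molecule ligand of the neurotrophin receptors TrkB and TrkC, and they enter here only where the response itself is compared.

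Theta-burst stimulation imitates the rhythm at which hippocampal pyramidal cells fire during exploration and is a standard way to induce long-term potentiation, a lasting increase in synaptic strength. Firing neurons switch on immediate-early genes such as Fos, Arc, Npas4 and Egr1, and later a second set of genes that includes Bdnf, whose product acts on the TrkB receptor encoded by Ntrk2. A brain slice also holds astrocytes, microglia, oligodendrocyte lineage cells and vessels. Microglia and astrocytes answer tissue signals through NF-kappaB, interferon and STAT3 pathways, and cutting tissue is itself known to activate them. Both slices of a mouse were cut.

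The main outcome was a large rise of cytokine, chemokine, NF-kappaB, interferon-stimulated and reactive-astrocyte transcripts in the stimulated slices, with a fall of the genes that mark resting microglia. The rapid activity-regulated neuronal genes Fos, Arc and Npas4 did not pass the test. Of the 20 tested genes of their list 4 were called higher and 2 lower, which is 30% of the list. Of 19478 genes tested, 3906 were called, at an adjusted p under 0.05 by edgeR's quasi-likelihood test with the mouse as a block, and this is 20.1% of the genes tested. Of these, 2253 (11.6% of the genes tested) were higher and 1653 (8.49%) were lower in the stimulated slices. Among the called higher genes 706 rose over 2-fold, 310 over 4-fold, 170 over 8-fold and 49 over 32-fold. Among the called lower genes 346 fell over 2-fold, 34 over 4-fold and 3 over 8-fold. The median log2 fold change was 0.56 in the first set, -0.59 in the second and -0.01 over all genes tested. In 3127 genes (16.1% of those tested) the stimulated and sham groups did not overlap. Of the called genes, 2129 of those higher and 1609 of those lower moved the same way in all 4 mice. Without the mouse block 2397 genes were called (1599 higher and 798 lower). Leaving out Mouse1509, Mouse1513, Mouse1522 or Mouse1524 left 2496, 2448, 3030 or 2522 called genes. The 2 mice outside batch E gave 1269 and the 2 batch E mice 1584.

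**Figure D1:**
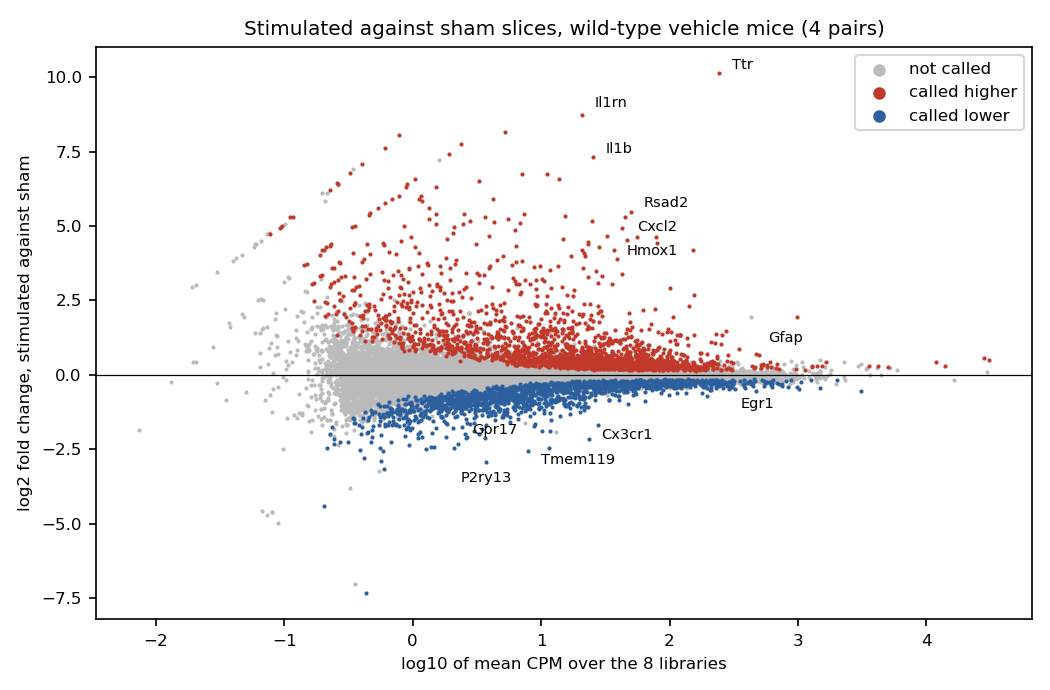
Each point is a gene with a count in these libraries, placed by the log10 of its mean level (CPM, counts scaled to library size) over the 8 libraries and by its log2 fold change between stimulated and sham slices. Red points were called higher and blue points lower; Il1rn is at 8.72, Ttr at 10.14 and P2ry13 at -2.92, and of the called genes 170 rose and 3 fell over 8-fold.

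The total expected count was 13260592 to 17462576 in the sham libraries and 17885755 to 22935204 in the stimulated libraries, so every stimulated library was deeper. Mitochondrial genes took 3.07%, 4.35%, 2.74% and 2.74% of the counts in the sham slices of Mouse1509, Mouse1513, Mouse1522 and Mouse1524 and 4.41%, 4.88%, 2.95% and 2.91% in their stimulated slices. The share was higher in the stimulated slice of every mouse, and its part in the results was not tested. The stimulated library of Mouse1524 stood apart from the other stimulated libraries. It had 23759 genes with a count against 25856 to 26472, 19.3% of its counts in its top 10 genes against 15.1% to 16%, and a TMM factor (the scaling applied to its library size) of 0.91 against 1 to 1.02. Mouse1509 and Mouse1513 belong to batch E of the labels, Mouse1522 to batch A and Mouse1524 to batch C, and both slices of a mouse are in the same batch. Hippocampal identity was present in every library: the summed level of 5 CA1 markers was 397 to 542 CPM, that of 7 CA2 and CA3 markers 169 to 207 CPM and that of 5 dentate granule markers 237 to 428 CPM. Thalamic markers, a neighbouring tissue, summed to 39.4 to 55.4 CPM. Choroid plexus transcripts stood apart in the stimulated slices of both batch E mice and are described at the end. In what follows the 4 values of a group are always in the order of Mouse1509, Mouse1513, Mouse1522 and Mouse1524, and levels are in CPM.

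The upstream DNA of 4 responding genes is shown first, because interferon and NF-kappaB target genes are among the groups that rose and each pathway has a known short motif. The windows run from 250 bases before to 50 bases after the gene's start, 5′ to 3′ on the gene's strand, from RefSeq on GRCm38.p6. Isg15 encodes a ubiquitin-like protein made after interferon and lies at chr4:156200769-156201068 (minus strand). Cxcl10 encodes a T-cell attracting chemokine and lies at chr5:92348840-92349139 (minus strand). Nfkbia encodes the NF-kappaB inhibitor IkappaB-alpha and lies at chr12:55492598-55492897 (minus strand). Cxcl2 encodes a neutrophil-attracting chemokine and lies at chr5:90903649-90903948 (plus strand). Capitals mark 2 motifs, searched on both strands. In the first 2 windows it is the interferon-stimulated response element (GAAA, any 2 bases, then GAAA). In the last 2 it is a kappaB motif (GGG, any 2 bases, then TTTCC).
Isg15: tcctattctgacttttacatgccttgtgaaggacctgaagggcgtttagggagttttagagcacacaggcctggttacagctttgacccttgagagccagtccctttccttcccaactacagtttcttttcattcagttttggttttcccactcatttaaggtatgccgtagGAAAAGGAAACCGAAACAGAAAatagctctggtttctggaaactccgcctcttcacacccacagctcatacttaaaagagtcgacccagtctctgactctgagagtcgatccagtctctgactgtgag
Cxcl10: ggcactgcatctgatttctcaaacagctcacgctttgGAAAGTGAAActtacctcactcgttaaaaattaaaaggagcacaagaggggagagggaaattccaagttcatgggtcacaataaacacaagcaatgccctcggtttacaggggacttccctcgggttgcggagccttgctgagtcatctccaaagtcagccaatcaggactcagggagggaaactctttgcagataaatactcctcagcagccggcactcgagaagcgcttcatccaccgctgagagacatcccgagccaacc
Nfkbia: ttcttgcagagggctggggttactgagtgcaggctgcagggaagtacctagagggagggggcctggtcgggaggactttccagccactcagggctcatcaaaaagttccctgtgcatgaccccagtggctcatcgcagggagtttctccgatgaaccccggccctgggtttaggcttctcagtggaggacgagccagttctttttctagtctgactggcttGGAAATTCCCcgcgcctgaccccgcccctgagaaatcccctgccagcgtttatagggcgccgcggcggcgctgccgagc
Cxcl2: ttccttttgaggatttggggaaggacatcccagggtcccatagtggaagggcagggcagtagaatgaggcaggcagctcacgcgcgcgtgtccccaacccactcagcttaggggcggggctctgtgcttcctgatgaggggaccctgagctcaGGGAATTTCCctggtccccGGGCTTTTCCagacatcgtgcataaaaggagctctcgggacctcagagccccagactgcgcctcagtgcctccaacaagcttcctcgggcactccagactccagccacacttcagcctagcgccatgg

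The interferon element occurred 3 times in overlap in the Isg15 window and once in that of Cxcl10. The kappaB motif occurred once in the Nfkbia window and 2 times in that of Cxcl2. No printed window held the searched letters of both motifs. Other forms of either motif were not searched, so lower case letters do not show that a window lacks one. Of the interferon-stimulated genes with a window in the table, 9 of 17 held the interferon element, among them Ifit1, Ifit3, Rsad2, Gbp2 and Stat2. The same letters were in 471 of the 12445 tested genes with a window (3.78%) and in 1131 of all 32851 windows (3.44%). Among all genes called higher the count was 102 of 1713 (5.95%), among those over 4-fold it was 40 of 209 (19.1%), and among all genes called lower it was 18 of 783 (2.3%). The kappaB motif was in 4 of 14 NF-kappaB genes (Nfkb2, Nfkbia, Rel and Tnfaip3) and in 4 of 12 chemokine genes (Ccl9, Cxcl1, Cxcl2 and Cxcl3). It was in 243 of the 12445 tested genes (1.95%), in 535 of all windows (1.63%), in 49 of 1713 genes called higher (2.86%), in 13 of 209 of those over 4-fold (6.22%) and in 16 of 783 genes called lower (2.04%). Of 16 rapid activity-regulated genes with a window, 1 (Egr4) held the interferon element and 0 held the kappaB motif. Neither motif was in the 9 homeostatic microglia or 11 antioxidant genes with a window, and of 8 cytokine genes 0 held the interferon element and 2 the kappaB motif. These are matches of letters within 300 bases and no measurement of binding.

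Interleukin-1 transcripts rose steeply. Il1b encodes the pro-inflammatory cytokine interleukin-1 beta and was at 0.237, 0.216, 0.44 and 0.346 CPM in sham slices and at 58.4, 47.9, 23.2 and 73.8 CPM in stimulated slices. All stimulated slices lay far above the sham slices, with Mouse1522 the lowest of them. Its log2 fold change was 7.32 (SE 0.41, adjusted p by edgeR = 1.29e-08). Il1rn, which encodes the natural antagonist of the same receptor, went from 0.0593, 0.144, 0.126 and 0.0578 CPM to 50.9, 41, 28.1 and 47.8 CPM. Agonist and antagonist transcripts thus rose in the same slices, and Il1rn had a log2 fold change of 8.72 (SE 0.53, adjusted p by edgeR = 2.41e-08). Il1a, the alpha form, was already measurable in sham slices at 23.1, 19.4, 24.3 and 21.1 CPM and reached 261, 171, 78.5 and 204 CPM (log2 fold change 2.91). Of 8 tested members of the family these 3 were called higher and 0 lower. The receptor genes Il1r1 (0.56), Il1r2 (0.17) and Il1rap (0.16) and the related cytokines Il33 (0.33) and Il18 (-0.03) were not called, and the median log2 fold change of the 8 was 0.45. Il1r1 was called higher by DESeq2 (adjusted p = 0.0341), without Mouse1522 and in the batch E mice alone, and Il33 in a fit of the 8 libraries alone.

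Other cytokine genes followed. Of 13 tested genes for interleukins of the 6, 10 and 12 families, tumour necrosis factor and growth-factor cytokines, 11 were called higher and 0 lower, with a median log2 fold change of 3.7 against -0.01 over all genes. Tnf was at 6.46, 4.18, 6.29 and 5.83 CPM in sham slices and at 165, 114, 82.5 and 241 CPM in stimulated slices (log2 fold change 4.64, SE 0.30). Every stimulated slice exceeded every sham slice, Mouse1524 having the highest stimulated level and Mouse1522 the lowest. Il12b, the shared subunit of interleukins 12 and 23, had 2 counts in the 4 sham libraries together and stood at 11.4, 12.3, 1.69 and 16.7 CPM after stimulation. The pooled counts gave a ratio of 316, with a 95% counting interval of 87.1 to 2610. Il10, an anti-inflammatory cytokine, had 1 sham count in all, and its pooled ratio was 116 (counting interval 20.4 to 4600). Lif, a cytokine of the interleukin-6 family that signals through STAT3, rose with a log2 fold change of 4.2 and Il6 itself with 3.7. Csf3 (4.67), Il11 (5.12) and Clcf1 (2.38) rose as well, while Csf1 (0.90), Tgfb1 (0.93) and Osm (0.85) were called with smaller changes. Il12a (0.38) and Il23a (1.3) were not called. The call of Osm was lost without Mouse1509 or Mouse1524.

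Chemokine genes for attracting neutrophils, monocytes and T cells rose together. Of 19 tested, 13 were called higher and 3 lower, and the median log2 fold change was 4.0, or 3.72 with Cxcl9 (0 sham counts) at its lower bound. Cxcl2 was at 2.08, 2.31, 2.77 and 1.73 CPM in sham slices and at 90.9, 68.6, 80.4 and 112 CPM in stimulated slices. The 4 mice gave closely similar rises, and the log2 fold change was 5.3 (SE 0.28, adjusted p by edgeR = 5.97e-09). Cxcl10 went from 5.81, 5.26, 11.4 and 6.76 CPM to 144, 132, 176 and 162 CPM (log2 fold change 4.42). Ccl5 went from 0.178, 0.0721, 0.189 and 0.346 CPM to 20.8, 21.6, 15 and 31.2 CPM (log2 fold change 6.74). Neither gene had overlapping groups, and Mouse1522 had the highest sham level of Cxcl10. Ccl4 (4.63), Ccl3 (4.18) and Ccl2 (4.09), ligands for monocyte receptors, were also called higher. The 3 called lower were Cxcl12 (-1.02), which acts on CXCR4, Ccl6 (-0.71) and the neuronal chemokine Cx3cl1 (-0.22), and Ccl12 (0.29) and Cxcl14 (0.06) were not called. The call of Ccl6 was lost when any 1 mouse was left out, and that of Cx3cl1 without Mouse1509, Mouse1513 or Mouse1524. Cx3cr1, the microglial receptor for Cx3cl1, was also called lower and is described with the microglial genes.

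Most genes of the NF-kappaB pathway rose. Of 17 tested subunits and feedback genes, 14 were called higher and 1 lower, with a median log2 fold change of 1.23. Tnfaip3, which encodes the feedback inhibitor A20, was at 26.9, 22.6, 30.6 and 30.4 CPM in sham slices and at 149, 129, 96.3 and 136 CPM in stimulated slices (log2 fold change 2.2). Nfkbia went from 52.5, 42.7, 54.8 and 57.2 CPM to 144, 122, 129 and 161 CPM (log2 fold change 1.42). In both genes the stimulated slices lay above all sham slices. Birc3 (2.34) and Traf1 (2.62), adaptors of the tumour necrosis factor receptors, and the subunits Nfkb2 (1.89), Relb (1.39), Nfkb1 (1.07) and Rela (1.06) were called higher, whereas the subunit Rel was called lower (-0.25), a call that was lost without Mouse1513, Mouse1522 or Mouse1524. Of 13 Toll-like receptor and adaptor genes, 6 were called higher and 0 lower, with a median of 0.71. Cd14, the co-receptor for bacterial lipopolysaccharide, rose from 8.24, 6.56, 7.92 and 7.68 CPM to 65.7, 55.3, 56.1 and 76.6 CPM (log2 fold change 3.05). Tlr2 (2.23), Tlr1 (2.29) and Myd88 (1.52), the shared adaptor, rose too, and Tlr4 (0.60), Tlr7 (0.45) and Tlr9 (-0.47) were not called.

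Interferon-stimulated genes were the list with the highest share of calls among the inflammatory lists: 19 of 20 tested were called higher and 0 lower, with a median log2 fold change of 3.21. Bst2 (1.06) was the gene not called, although it was by DESeq2 and in a fit of the 8 libraries alone. Rsad2, which encodes the antiviral enzyme viperin, was at 1.42, 1.37, 5.03 and 1.27 CPM in sham slices and at 102, 94.1, 128 and 66 CPM in stimulated slices. Mouse1522 had the highest value in both groups, the groups were far apart, and the log2 fold change was 5.48 (SE 0.39, adjusted p by edgeR = 1.12e-07). Isg15 went from 0, 0.216, 0.566 and 0.578 CPM to 13.8, 10.9, 13.7 and 19.3 CPM (log2 fold change 5.4). Oasl1, an antiviral gene of the 2′-5′ oligoadenylate synthetase-like family, went from 0.474, 0, 0.44 and 0.173 CPM to 27.5, 24.2, 31 and 26.9 CPM (log2 fold change 6.59). The 4 mice again rose to similar levels. Transcription factors of the pathway rose less, with log2 fold changes of 3.19 for Irf7, 1.77 for Irf1, 1.29 for Irf9 and 1.22 for Stat2. Stat2 was not called without the batch E mice (1.06, edgeR adjusted p = 0.0902). The Oas-like, Ifit and Gbp genes belong to families with similar sequences, so the division of reads among their members is uncertain.

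STAT3, SOCS and C/EBP genes, which carry the signal of the interleukin-6 family, gave 12 called higher and 0 lower of 14, with a median log2 fold change of 1.05. Osmr, the oncostatin M receptor, was at 39.5, 41.6, 65.5 and 31.6 CPM in sham slices and at 195, 180, 181 and 115 CPM in stimulated slices. The groups did not overlap, and its log2 fold change was 1.93 (SE 0.30, adjusted p by edgeR = 2.80e-04). Saa3, an acute-phase gene of a family with similar members, had 0 counts in all 4 sham libraries and 131 counts in the stimulated ones, at least 35.3-fold higher with the floor of 3 counts taken over the sham group. Lcn2 (2.43), Socs1 (1.74), Cebpd (1.5), Stat3 (1.35) and Socs3 (1.02) were called higher, and Lifr (-0.19) and Socs2 (-0.24) were not called. Lcn2 was not called without the batch E mice (1.82, edgeR adjusted p = 0.108).

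Matrix-degrading enzymes and prostaglandin enzymes moved in part. Of 19 matrix protease and inhibitor genes, 14 were called higher and 0 lower, with a median of 1.29. Plau encodes urokinase, which activates plasmin, and went from 4.62, 3.53, 4.71 and 4.68 CPM to 59.1, 53.4, 43.2 and 42 CPM (log2 fold change 3.47). Both groups were tight and far apart. Mmp3 (stromelysin) had 1 sham count and a pooled ratio of 255 (counting interval 45.4 to 10100). Mmp12 (5.41), Mmp13 (5.41) and Timp1 (3.14), an inhibitor of metalloproteinases, rose with them, while Mmp9 (-0.44) and Timp2 (-0.36) were not called. Of 9 prostaglandin genes 3 were called higher and 1 lower, and without the batch E mice 1 was called each way. Ptgs2, the inducible cyclooxygenase COX-2 that neurons also express after activity, went from 23.7, 35.1, 51.1 and 26.4 CPM to 132, 128, 91.6 and 88.2 CPM (log2 fold change 1.72). Ptges, the enzyme that makes prostaglandin E from its product, rose by 2.31, and the constitutive cyclooxygenase Ptgs1, a gene of microglia, fell (log2 fold change -1.01). The 12 complement genes split, with Cfb (2.3), C5ar1 (1.82) and C3ar1 (1.72) called higher and C1qa (-1.05) and C1qc (-0.74) among those lower. Without Mouse1509, Mouse1513 or Mouse1522 Cfb was no longer called. Without the batch E mice Ptgs2 (1.29, edgeR adjusted p = 0.106), Timp1 (2.67, edgeR adjusted p = 0.0758), Cfb and C1qc were not called.

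**Figure D2:**
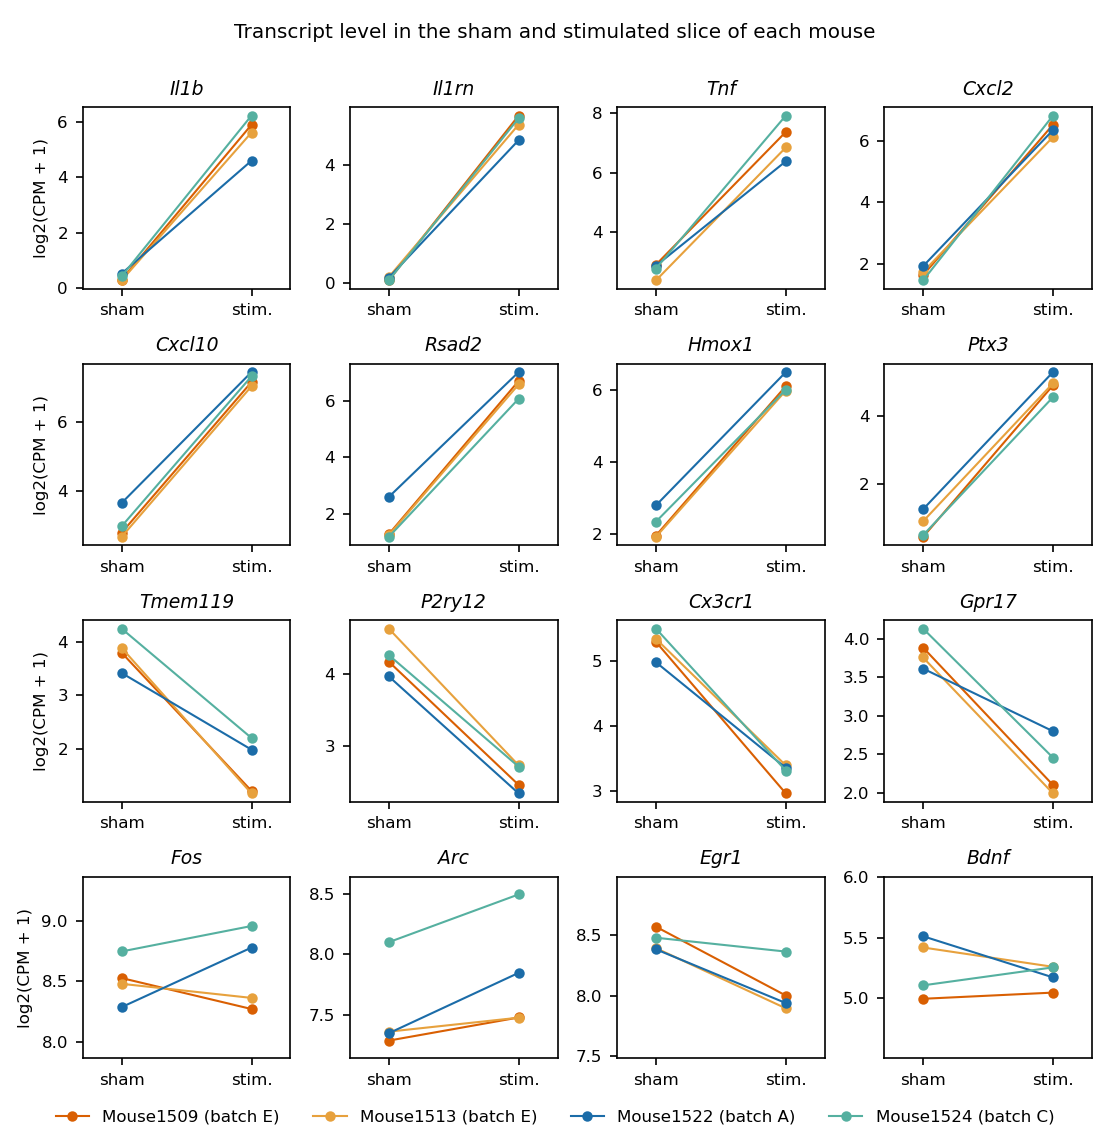
Each panel plots 1 gene as log2(CPM + 1) in the sham and the stimulated slice, with a line for each of the 4 mice coloured by mouse and batch; axes differ between panels and do not start at 0. The 8 inflammatory, interferon, antioxidant and astrocyte genes rose and Tmem119, P2ry12, Cx3cr1 and Gpr17 fell in every mouse, whereas Fos and Bdnf were higher after stimulation in some mice and lower in others.

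Rapid activity-regulated neuronal genes changed in both directions or were not called. Of 20 tested 4 were called higher and 2 lower, 30% of the list against 20.1% of all genes, and their median log2 fold change was 0.07. Fos, a transcription factor used as a marker of firing, was at 368, 356, 311 and 428 CPM in sham slices and at 308, 328, 438 and 496 CPM in stimulated slices. It was lower after stimulation in Mouse1509 and Mouse1513 and higher in Mouse1522 and Mouse1524, and was not called (log2 fold change 0.08, SE 0.14, edgeR adjusted p = 0.721). Arc, which encodes a synaptic protein that regulates glutamate receptor uptake, went from 155, 163, 162 and 273 CPM to 177, 177, 229 and 359 CPM. It was higher in the stimulated slice of every mouse, but the groups overlapped and it was not called (log2 fold change 0.30, SE 0.13, edgeR adjusted p = 0.117). It was called higher in a fit of the 8 libraries alone (edgeR adjusted p = 0.0135). Npas4, a neuron-specific factor induced by calcium entry, was at 44.2, 34.7, 39.1 and 25.2 CPM in sham slices and at 31.9, 29.2, 39.5 and 38 CPM in stimulated slices (log2 fold change -0.03, edgeR adjusted p = 0.954). With 4 pairs, a gene with the spread of Npas4 (SE 0.29) allows no statement on small changes.

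Some members of the rapid set did change, in both directions. Egr2, a zinc-finger factor, rose from 6.52, 4.97, 7.23 and 7.74 CPM to 12.9, 12.4, 11.5 and 22.9 CPM (log2 fold change 1.14, SE 0.14, edgeR adjusted p = 3.35e-05). Egr1, its more abundant relative, fell from 380, 336, 333 and 356 CPM to 255, 237, 245 and 329 CPM (log2 fold change -0.41, SE 0.10, edgeR adjusted p = 0.0117). No stimulated slice reached the lowest sham level of Egr1. Fosb also fell (-0.62), and Maff (0.66), Dusp1 (0.47) and Egr3 (0.33) rose. Egr1 was no longer called without Mouse1509 (-0.35, edgeR adjusted p = 0.0689) or Mouse1513 (-0.38, edgeR adjusted p = 0.0589). Fosb lost its call without Mouse1509 (-0.58), Mouse1513 (-0.65) or Mouse1522 (-0.38), and Egr3 without Mouse1509 (0.31), Mouse1513 (0.33) or Mouse1524 (0.31). Among 22 delayed genes 9 were called higher and 2 lower, with a median of 0.15. The count called lower was 0 without the block, without the batch E mice and with only those mice. Gadd45b, a DNA-damage and activity-inducible gene that NF-kappaB also controls, rose from 29.2, 24.6, 35.4 and 35.3 CPM to 85.4, 71.8, 82.8 and 115 CPM (log2 fold change 1.5, SE 0.08). Gadd45g (1.4), Inhba (1.46), Crem (1.21) and Cdkn1a (1.27) rose too, and Homer1 (0.05), Vgf (0.11) and Rgs2 (0.18) were not called. Of 16 genes for MAP kinase phosphatases and Sprouty proteins, which limit ERK, p38 and JNK signalling, 9 were called higher and 0 lower, led by Dusp2 (2.24) and Dusp10 (1.43). This count was 6 without Mouse1509, Mouse1513 or Mouse1524 and 5 with only the batch E mice. Dusp6 (0.12) was not called.

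Neurotrophin transcripts changed little. Bdnf was at 30.9, 41.8, 44.6 and 33.4 CPM in sham slices and at 32, 37.3, 35 and 37.2 CPM in stimulated slices (log2 fold change -0.08, SE 0.14, edgeR adjusted p = 0.738). It was higher after stimulation in Mouse1509 and Mouse1524 and lower in the other two. Ntrk2, which encodes TrkB, was at 608, 582, 649 and 688 CPM and at 575, 561, 653 and 659 CPM, with a log2 fold change of -0.05 (SE 0.07). Ntrk3, the receptor TrkC for neurotrophin-3, fell from 421, 485, 470 and 394 CPM to 350, 380, 356 and 228 CPM (log2 fold change -0.45, SE 0.11, edgeR adjusted p = 0.00743). No stimulated slice overlapped the sham slices for Ntrk3, and Mouse1524 fell most. Sort1, a sorting receptor for neurotrophin precursors, was the other of 7 tested genes called, at -0.24. These 2 calls are 28.6% of the list, against 20.1% of all genes. The call of Ntrk3 was lost without Mouse1524 (log2 fold change -0.34, edgeR adjusted p = 0.061), and that of Sort1 without any 1 mouse.

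Among synaptic proteins and channels, glutamate receptor genes were called more often than the 20.1% of all genes, and channel and presynaptic genes at a share near it. All calls in these lists were lower, and 8.49% of all genes were called lower. Log2 fold changes were negative in 18 of 19 glutamate receptor, 21 of 24 channel and 16 of 17 presynaptic genes, with a median of -0.01 over all genes. None of 15 postsynaptic scaffold and signalling genes was called in either direction by edgeR or DESeq2 and 0 had an unadjusted p under 0.05, and their log2 fold changes lay between -0.10 and 0.18. Of 19 glutamate receptor genes 8 were called lower and 0 higher (42.1% called), with a median of -0.25. Grin2b, a subunit of the NMDA receptor, was at 1699, 1769, 1832 and 1525 CPM in sham slices and at 1389, 1498, 1378 and 848 CPM in stimulated slices (log2 fold change -0.45). Mouse1524 had the lowest level in both groups. Gria4, a subunit of the AMPA receptor, fell from 65.2, 60, 59 and 63.9 CPM to 43.1, 42.6, 42.4 and 41.7 CPM (log2 fold change -0.55). Gria1 (-0.16) and Grin1 (-0.07) were not called. Of 24 voltage-gated channel genes 6 were called lower and 0 higher (25% of the list called, median -0.24), among them the potassium channel Kcna2 (-0.45), and of 17 presynaptic genes 3 were lower (17.6% called; 1 without the block and 0 without the batch E mice), among them the calcium sensor Syt1 (-0.40). Grin2b was not called without Mouse1524 (log2 fold change -0.31) or without the mouse block, and Gria4, Kcna2 and Syt1 were not called without the batch E mice. These counts were small and unsteady. Glutamate receptor calls fell to 2 and channel calls to 1 without the mouse block, to 3 and 2 without Mouse1524, to 5 and 3 without Mouse1509, and to 1 and 0 without the batch E mice. Without Mouse1513, 5 glutamate receptor genes were called lower. Channel calls rose to 12 with only the 8 libraries in the fit.

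Neuronal subtype and thalamic markers were called at a share near that of all genes (6 of 37, 16.2%, against 20.1%). Of 6 excitatory neuron markers 3 were called lower (Tbr1 -0.48, Neurod6 -0.35 and the vesicular glutamate transporter Slc17a7 -0.23) and 0 higher. None of the 10 interneuron markers or 5 dentate granule markers was called by edgeR or DESeq2, and 5 interneuron and 0 granule markers had an unadjusted p under 0.05. The log2 fold change was negative for all 10 interneuron and all 5 granule markers. In CA1 and CA2 or CA3 neurons 1 marker each was called higher (Pou3f1 0.53 and Rgs14 0.35), and of 4 thalamic markers 1 was called lower (Lef1 -1.09). Each of these 6 calls was lost when at least 1 of the mice was left out. In bulk tissue, fewer cells of a type and less RNA per cell cannot be told apart, here and in all cell-type results that follow.

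Stress-response genes rose broadly. Of 14 antioxidant and metallothionein genes 12 were called higher and 0 lower, with a median log2 fold change of 0.70. Hmox1, the haem-degrading enzyme haem oxygenase 1, went from 2.9, 2.81, 5.97 and 4.1 CPM to 67.8, 62.2, 89.1 and 63.3 CPM (log2 fold change 4.18, SE 0.30, edgeR adjusted p = 1.10e-07). Slc7a11, the cystine importer that feeds glutathione synthesis, went from 40.4, 52.7, 50.3 and 44.9 CPM to 208, 246, 281 and 205 CPM (log2 fold change 2.32). The groups were well separated for both, and Mouse1522 was the highest stimulated slice in each. Txnrd1 (1.53), Mt2 (1.16), Srxn1 (0.87), Nqo1 (0.73) and Gclm (0.57) rose with them, and Sod2 (0.20) was not called. Nqo1 lost its call without Mouse1509, Mouse1513 or Mouse1524.

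The integrated stress response, in which the factor ATF4 drives amino-acid and stress genes, gave 11 of 13 called higher and 0 lower (median 0.45), and 7 called higher either without the batch E mice or with only those mice. Atf4 itself went from 69.7, 57.2, 85.6 and 83.3 CPM to 141, 124, 155 and 192 CPM (log2 fold change 1.05, SE 0.08). Trib3, a target of ATF4, went from 0.237, 0.504, 0.314 and 0.289 CPM to 4.82, 2.37, 1.9 and 1.97 CPM (log2 fold change 2.98). Mouse1509 had the highest stimulated level of Trib3. Chac1 (1.5), Ddit3 (1.31) and Sesn2 (0.98) rose too, and Asns (0.11) was not called. Of 16 heat shock and endoplasmic reticulum chaperones 8 were called higher and 0 lower (median 0.16). Hspa1a, the inducible HSP70, went from 20, 17.4, 20.6 and 24 CPM to 47.3, 50, 30.9 and 55.9 CPM (log2 fold change 1.14), and Bag3 (1.12) rose with it. Hspa1a and Hspa1b are near-identical copies, so their separate values are uncertain. Chaperone calls fell to 5 without the block or without Mouse1513 and to 4 without Mouse1524.

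Metabolic lists were mixed. Of 19 glycolysis and hypoxia genes 5 were called higher and 1 lower, 31.6% of the list against 20.1% of all genes. Hk2 (hexokinase 2, 1.62) and Pfkfb3 (0.97), both of which increase glycolytic flux, were called higher, while the hypoxia targets Vegfa (-0.04) and Car9 (-0.82) were not called. Of 18 cholesterol synthesis genes 7 were called higher and 1 lower (44.4% called, median 0.22), with Idi1 at 0.63 and Dhcr7 at -0.38. Of 8 targets of the sterol-sensing LXR receptors 1 was called higher (Mylip, 0.82), 12.5% of the list and below the share of all genes. Of 13 mitochondrially encoded genes 6 were called higher (46.2% called, median 0.30). This fell to 0 without the block, 1 without Mouse1509 and 2 without Mouse1524. Pcna, a replication factor, was the only called gene of 10 cell cycle genes tested (0.70), and Mki67 (0.37) was not called. This is 10% of the list, below the share of all genes. The call of Dhcr7 was lost without Mouse1524. Cholesterol synthesis genes called higher were 5 without the block, 4 without the batch E mice and 3 with only those mice, and glycolysis and hypoxia genes called higher were 4, 3 and 3.

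Microglial marker genes divided into 2 sets. Of 14 genes that mark homeostatic microglia, the resting state in healthy brain, 11 were called lower and 0 higher, with a median log2 fold change of -1.37. Tmem119, a microglial membrane protein, was at 12.9, 13.8, 9.68 and 17.9 CPM in sham slices and at 1.34, 1.27, 2.98 and 3.63 CPM in stimulated slices. All stimulated slices lay below all sham slices, with the 2 batch E mice the lowest, and the log2 fold change was -2.58 (SE 0.27, adjusted p by edgeR = 5.84e-06). P2ry12, the ADP receptor that steers microglial processes to damage, fell from 17, 23.7, 14.7 and 18.2 CPM to 4.54, 5.67, 4.11 and 5.59 CPM (log2 fold change -1.88, SE 0.12). Cx3cr1 fell from 38.4, 39.7, 30.7 and 44.4 CPM to 6.76, 9.48, 9.21 and 8.91 CPM (log2 fold change -2.15). These 2 genes fell to similar levels in all mice. The purinergic receptor P2ry13 (-2.92), the lipid receptor Gpr34 (-2.13), the fructose transporter Slc2a5 (-2.32) and the selectin ligand Selplg (-2.46) were called lower, as was Csf1r (-0.87). Sall1 (-0.06), Siglech (-0.33) and Trem2 (-0.42) were not called. The call count was 11 both with only the batch E mice and without them.

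Genes expressed by all microglia and macrophages moved in both directions. Of 12 tested, 3 were called higher and 4 lower, with a median log2 fold change of -0.37. Their summed level was 216, 220, 198 and 278 CPM in sham slices and 165, 162, 181 and 252 CPM in stimulated slices, lower after stimulation in every mouse. Without the block 1 was called higher and 4 lower, without the batch E mice 1 and 2, and with only those mice 1 and 4. Cd68, a lysosomal protein, went from 5.57, 6.2, 7.04 and 6.93 CPM to 11.7, 8.26, 11.5 and 11.7 CPM (log2 fold change 0.74), and Ptprc (CD45, 0.74) and the transcription factor Spi1 (0.52) rose. Ptprc was no longer called without Mouse1509, nor Spi1 without Mouse1509, Mouse1522 or Mouse1524. Itgam, the integrin CD11b, fell from 27.8, 25.4, 19.2 and 29.7 CPM to 11.9, 11, 11.7 and 14.4 CPM (log2 fold change -1.05). Aif1, which encodes IBA1, was at 3.44, 2.67, 2.33 and 2.71 CPM and at 1.48, 1.43, 1.3 and 3.2 CPM and was not called (log2 fold change -0.65, edgeR adjusted p = 0.0996). It was lower after stimulation in 3 mice and higher in Mouse1524, and it was called lower without that mouse (log2 fold change -0.99, edgeR adjusted p = 0.0288). Markers of macrophages at brain borders (5 of 7 tested, 0 called by edgeR or DESeq2, 2 at an unadjusted p under 0.05) summed to 1.44 to 5.78 CPM in sham and 0.738 to 4.71 CPM in stimulated slices. Of 17 blood leukocyte markers 2 were tested, with 0 called by edgeR or DESeq2 and 0 at an unadjusted p under 0.05, and the tested ones summed to at most 0.289 CPM in sham and 0.551 CPM in stimulated slices.

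**Figure D3:**
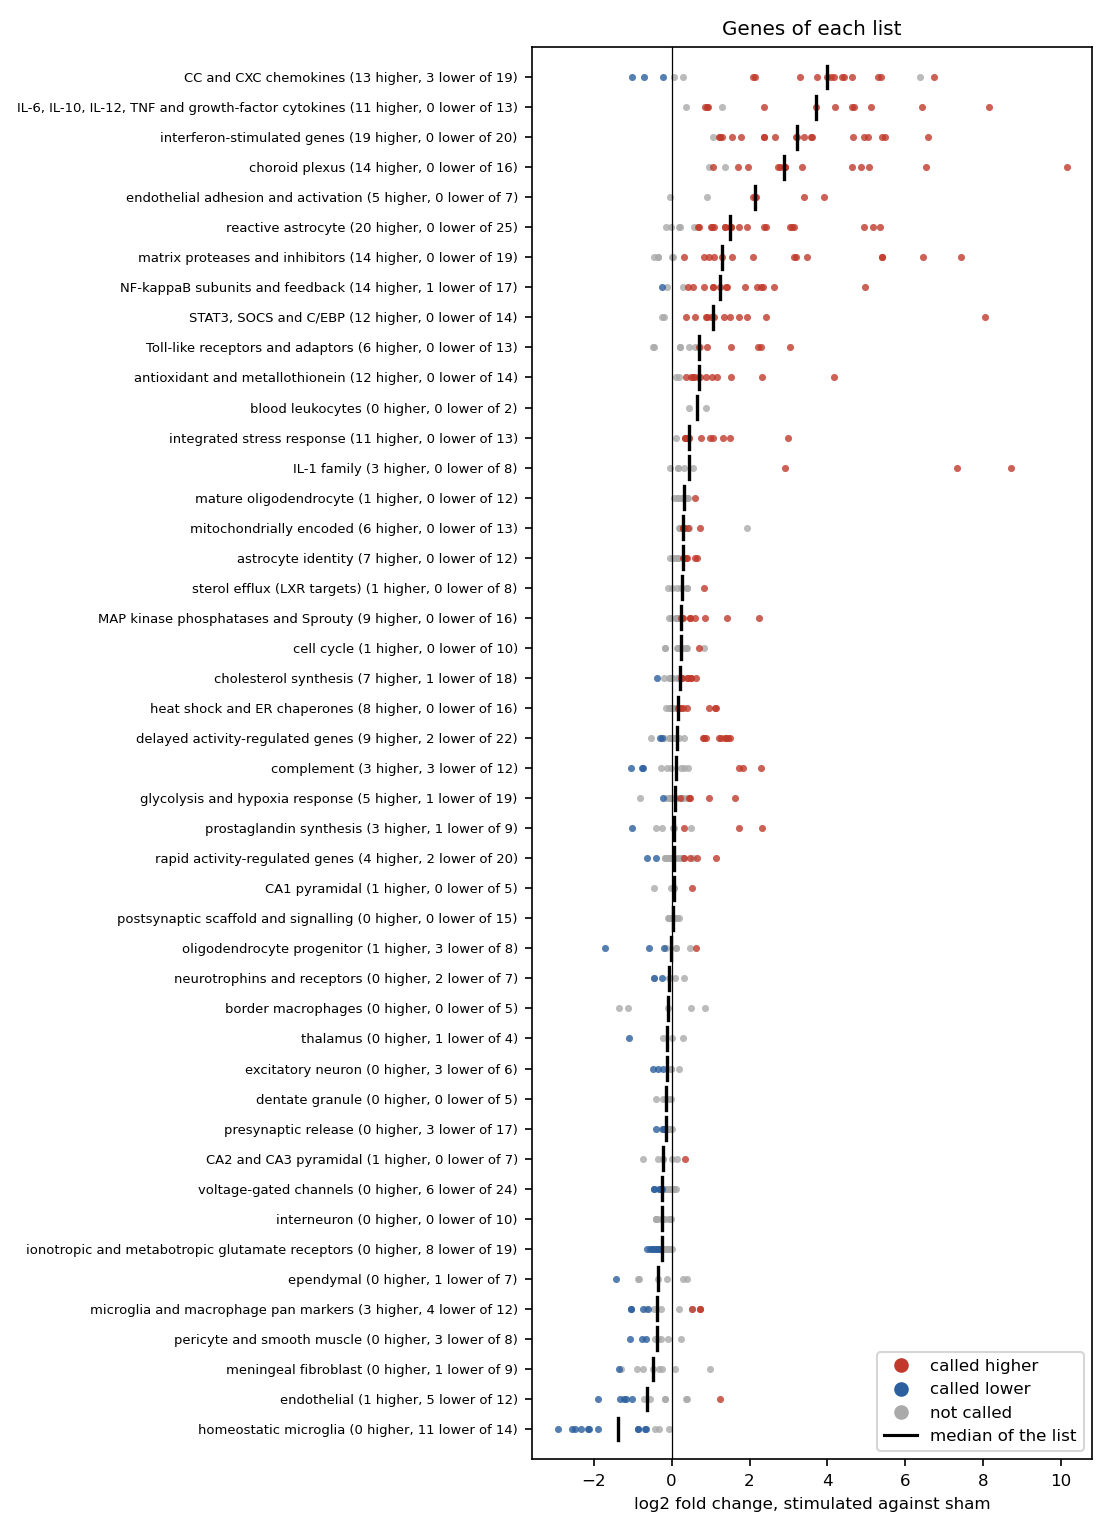
Each line is a gene list and each point a tested gene at its log2 fold change between stimulated and sham slices; the black bar is the median of the list, and the labels give the calls. Chemokine, cytokine and interferon lists lie furthest to the right with medians of 4.0, 3.7 and 3.21, homeostatic microglia furthest to the left at -1.37, and synaptic lists stay near 0. The chemokine median is 3.72 with Cxcl9 at its lower bound.

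Most genes reported for reactive astrocytes rose, and astrocyte identity genes rose in part and by less. Of 25 genes reported for reactive astrocytes 20 were called higher and 0 lower, with a median log2 fold change of 1.49. Ptx3, a secreted pattern-recognition protein, went from 0.356, 0.865, 1.38 and 0.404 CPM to 28.9, 30.2, 38.2 and 22.5 CPM (log2 fold change 5.34, SE 0.36, edgeR adjusted p = 6.50e-08). Gfap, the intermediate filament of astrocytes, was far more abundant and rose less, from 305, 332, 400 and 396 CPM to 520, 522, 586 and 688 CPM (log2 fold change 0.69). The groups overlapped for neither gene. Steap4 (5.17), Gbp2 (4.93), Cd44 (3.09), Tm4sf1 (1.74), Emp1 (1.52) and Vim (1.1) were called higher, and C3 (-0.02), Serpina3n (0.57) and Aspg (0.22) were not, although Serpina3n was in a fit of the 8 libraries alone. Several of these genes, such as Cd14, Gbp2 and Lcn2, are also in the inflammatory lists above and are made by other cells. Of 12 astrocyte identity genes 7 were called higher and 0 lower, with a median of 0.29, led by the water channel Aqp4 (0.66) and the transcription factor Sox9 (0.61). Aqp4 was not called without Mouse1509, and neither Aqp4 nor Gfap (0.69, edgeR adjusted p = 0.0572) without the batch E mice. Of the 12, 3 were called without the block or without Mouse1524, 4 without Mouse1509, Mouse1522 or both batch E mice, and 1 with only the batch E mice.

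In the oligodendrocyte lineage, Gpr17, a receptor of cells about to mature, fell from 13.8, 12.5, 11.2 and 16.6 CPM to 3.29, 2.98, 5.96 and 4.49 CPM (log2 fold change -1.71, SE 0.18, edgeR adjusted p = 5.32e-06). No stimulated slice reached the sham range. Of 8 progenitor markers 3 were called lower, with Cspg4 (NG2) at -0.58 and Pdgfra at -0.20 beside Gpr17, and Sox10 was called higher (0.62). The call of Pdgfra was lost without any 1 mouse. Of 12 mature oligodendrocyte genes 1 was called, Opalin (0.61), 8.33% of the list against 20.1% of all genes, and the median of the list was 0.31. Sox10 and Opalin lost their calls without the mouse block (edgeR adjusted p = 0.0752 and 0.0561) and with only the batch E mice (0.126 and 0.179). The myelin genes Mbp (0.37) and Mog (0.05) were not called, although Mbp was in a fit of the 8 libraries alone.

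Vessel genes differed between mice. Of 7 tested endothelial activation genes 5 were called higher and 0 lower (median 2.13). Vcam1, an adhesion molecule for leukocytes, went from 17, 16.3, 18.7 and 20 CPM to 110, 82.5, 61.8 and 59.6 CPM (log2 fold change 2.08, SE 0.19). Sele (E-selectin), which endothelium makes on activation, went from 0.178, 0.216, 0.377 and 0.231 CPM to 6.81, 3.03, 2.2 and 0.369 CPM (log2 fold change 3.41). Vcam1 was clearly up in every mouse, but for Sele the stimulated slice of Mouse1524 lay within the sham range. Of 12 endothelial identity genes 5 were called lower and 1 higher, with a median of -0.64. Slco1a4, an anion transporter of the blood-brain barrier, fell from 16.3, 20.3, 14.7 and 11.9 CPM to 6.21, 6.23, 3.72 and 1.78 CPM (log2 fold change -1.88). Cdh5, the junction protein VE-cadherin, was called higher (1.24), at 16.7, 12.4, 18.6 and 14.6 CPM in sham and 83.3, 48.8, 40.6 and 7.56 CPM in stimulated slices, and it was lower after stimulation in Mouse1524. Without the batch E mice its log2 fold change was 0.23 and it was not called, nor was it without Mouse1509, Mouse1513 or Mouse1522 alone.

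The summed level of the 12 endothelial genes was 169 to 204 CPM in the 4 sham slices. In the stimulated slices it was 302, 203, 158 and 41.5 CPM. The 8 pericyte and smooth muscle genes summed to 121 to 129 CPM in sham slices and to 130, 110, 84.8 and 41.6 CPM in stimulated slices, and 3 of them were called lower (Vtn -1.08, Pdgfrb -0.76 and Abcc9 -0.65). The 9 meningeal fibroblast genes summed to 28.5 to 47.3 CPM in sham and to 81.2, 64.6, 41.8 and 10.8 CPM in stimulated slices. Of these 9 genes 1 was called lower (Slc6a13 -1.36), 11.1% against 20.1% of all genes. The stimulated slice of Mouse1524 thus had the lowest level of all 3 vessel-associated lists. Its sham slice was the lowest of the sham slices for the endothelial list (169 CPM) and lay within their range for the other two, at 125 and 32 CPM. Without Mouse1524 Abcc9 and Slc6a13 were no longer called, and Slc6a13 also lost its call without Mouse1513 or Mouse1522. Without Mouse1524 the endothelial genes called lower remained 5 in number, and Slco1a4, Cdh5, Vtn and Pdgfrb kept their calls.

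Choroid plexus transcripts were high in the stimulated slices of the 2 batch E mice and in no other slice. The choroid plexus is the tissue in the ventricles that makes cerebrospinal fluid, and it adjoins the hippocampus. Ttr encodes transthyretin, a carrier of thyroid hormone and the plexus's best-known product. It was at 0.178, 0.865, 0.566 and 0 CPM in sham slices and at 1072, 878, 0.13 and 0 CPM in stimulated slices. Mouse1509 and Mouse1513 thus carried the whole difference, and Mouse1522 and Mouse1524 showed no rise. The fit over 4 pairs gave a log2 fold change of 10.14 (SE 1.18, adjusted p by edgeR = 2.92e-05), and without the batch E mice it was -2.03 and not called (edgeR adjusted p = 0.781).

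The other choroid plexus genes followed Ttr. Of 16 tested, 14 were called higher and 0 lower, with a median log2 fold change of 2.89, but 1 was called without the batch E mice, 4 without Mouse1509, 4 without Mouse1513 and all 16 with only those 2 mice. With every mouse kept, 3 were called in a fit of the 8 libraries alone and 8 by DESeq2. The list summed to 25 to 32.4 CPM in the sham slices and to 1340, 1100, 28 and 18.5 CPM in the stimulated slices. Its median difference on the log2(CPM + 1) scale was 2.65 in Mouse1509, 2.53 in Mouse1513, -0.01 in Mouse1522 and -0.22 in Mouse1524. Clic6, a chloride channel protein, was at 27.5, 21.6, 0.259 and 0.0615 CPM in stimulated slices and at most 0.377 CPM in sham slices. Kl (klotho) had a measurable level in all sham slices, at 14.3, 18.2, 18.8 and 16.2 CPM, and was at 79.1, 63.2, 19.7 and 12.9 CPM in stimulated slices. Without either Mouse1509 or Mouse1513 alone, Clic6 and Kl were no longer called. Slc4a5, a bicarbonate transporter, was at 13, 12.5, 0.13 and 0.615 CPM after stimulation and 0 to 0.144 CPM in sham slices, and was called without the batch E mice too.

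Of 7 markers of ependymal cells, which line the same ventricles, 1 was called lower (Ccdc153 -1.42) and 0 higher, 14.3% against 20.1% of all genes. That call was lost without Mouse1509 or Mouse1513.

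Across all genes, 20 called genes had this pattern, taken as a rise over 1 in both batch E mice and under 0.2 in the other two on the log2(CPM + 1) scale, a rule chosen after the values were seen. Of these, 12 are in the choroid plexus list. The other 8 were Sult1c2, Cdh3, Prr32, Loxl4, Wdr86, Slc16a12, Steap2 and Lama5. The reverse pattern, a rise only in Mouse1522 and Mouse1524, was met by 0 called genes, while 228 called genes rose by over 1 in all 4 mice. With the choroid plexus list left out before normalization 3887 genes were called. The inflammatory lists did not divide the mice in this way. The median difference of the interferon-stimulated list was 2.54, 2.38, 2.29 and 2.1, that of the chemokines 2.39, 1.82, 1.45 and 1.99, and that of homeostatic microglia -1.21, -1.26, -0.77 and -1.15, in the usual order of mice. Of the 19 interferon-stimulated genes, 13 chemokines and 11 cytokines called higher, 16, 11 and 10 kept their calls without the batch E mice.

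**Figure D4:**
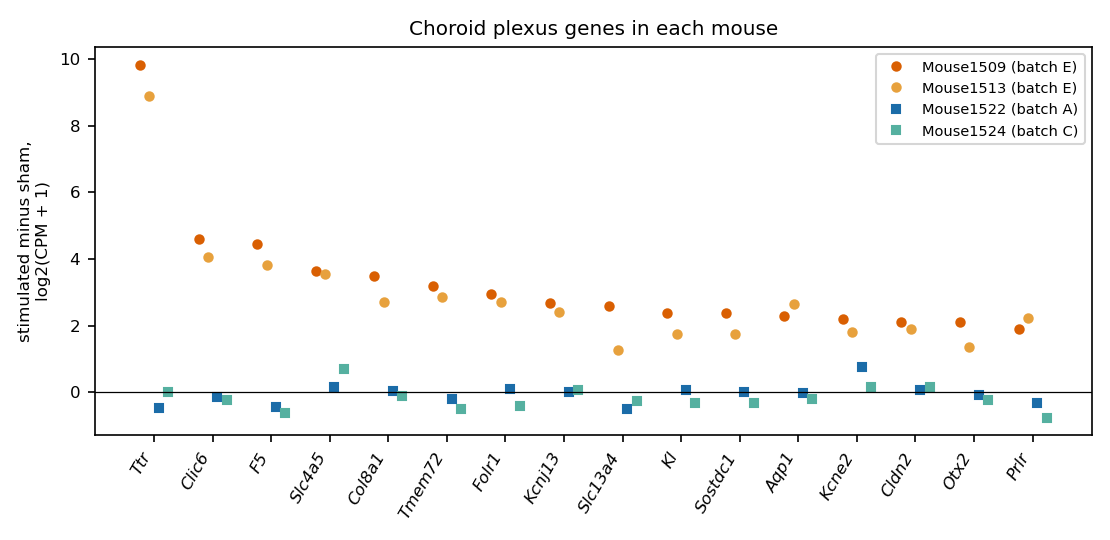
For each of 16 choroid plexus genes the stimulated minus sham difference in log2(CPM + 1) is plotted for each mouse, circles for batch E and squares for batches A and C. Every circle lies above 1, and the squares lie between -1 and 1.

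**Figure D5:**
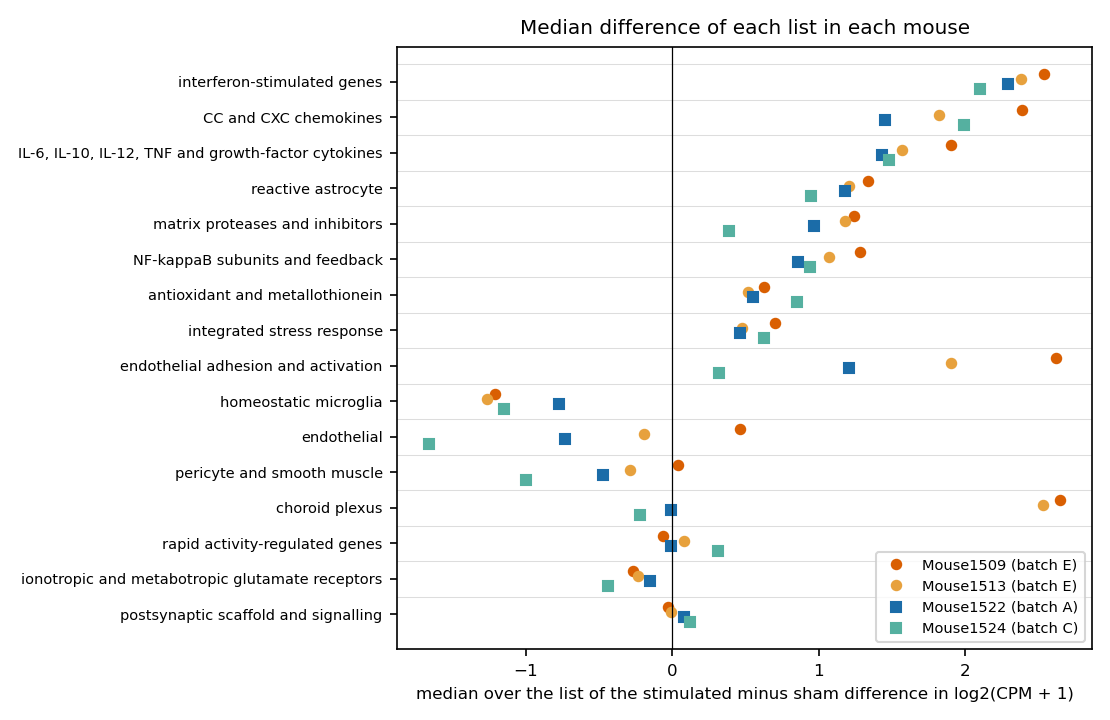
For 16 lists the median stimulated minus sham difference in log2(CPM + 1) within each list is plotted for each mouse. Inflammatory lists were above 0 and homeostatic microglia below 0 in all 4 mice, choroid plexus was above 2 in the batch E mice alone, and the endothelial list ran from 0.46 in Mouse1509 to -1.66 in Mouse1524.

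The genes with the largest changes outside the lists were named by rank. Acod1, whose enzyme makes itaconate in activated macrophages, went from 0, 0.144, 0.314 and 0.0578 CPM to 11, 12.9, 16.6 and 16.1 CPM (log2 fold change 6.76). Ccr7, a chemokine receptor of activated immune cells, had 1 sham count and a pooled ratio of 128 (counting interval 22.6 to 5070). Ifi205, of an interferon-inducible family with similar members, had 2 sham counts and a ratio of 100.0 (27.4 to 832), and the myeloid receptor gene Cd300lb had 2 and a ratio of 70.3 (19.2 to 585). Steap1, a metalloreductase gene, also had 2 sham counts (ratio 75.6, counting interval 20.6 to 629). It stood at 4.45, 3.86, 0.778 and 0.184 CPM after stimulation, higher in the batch E mice, and without those mice it was not called (log2 fold change 3.68, edgeR adjusted p = 0.156). On the falling side, genes named by the same rule and in none of the lists were Mlph (-2.49), Glp1r (-2.48), the receptor for glucagon-like peptide 1, Nfam1 (-2.42), Crocc2 (-2.41), Cass4 (-2.12) and Arhgap45 (-2.11), all lower in every mouse.

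Whether the response depended on genotype or treatment was asked by the difference of responses within the same fit. Against vehicle-treated T41B mice (4 mice), the response of wild-type vehicle slices differed in 3 of 19478 genes (0.0154%), and 3049 passed an unadjusted p under 0.05. 2 of them are choroid plexus genes: the response of Ttr was higher in wild-type mice by 10.63 (SE 1.39, edgeR adjusted p = 0.0182) and that of Slc4a5 by 7.02 (SE 0.66, edgeR adjusted p = 2.88e-04) on the log2 scale. By DESeq2 the Ttr difference was 5.9 and not called (adjusted p = 0.227). Without the mouse block neither gene was called (edgeR adjusted p = 0.345 for Ttr and 0.313 for Slc4a5). Malt1, a protease that relays signals to NF-kappaB, rose in wild-type slices from 14.6, 19.5, 15.5 and 13.4 CPM to 29.9, 31.3, 22.6 and 21.3 CPM (log2 fold change 0.73), and this was lower than the T41B response, with a difference of -1.51 (SE 0.21, edgeR adjusted p = 0.0207). No T41B mouse is in batch E, so for Ttr and Slc4a5 the genotypes cannot be compared within that batch. In the wild-type mice outside it, Mouse1522 and Mouse1524, stimulated Ttr was at 0.13 and 0 CPM. What part batch and genotype had was not tested. Without the batch E mice the difference was -1.57 for Ttr (edgeR adjusted p = 0.869), 6.51 for Slc4a5 (edgeR adjusted p = 0.237) and -1.64 for Malt1 (edgeR adjusted p = 0.0753). The Malt1 difference also missed the threshold when any 1 mouse was left out (-1.62 to -1.45, edgeR adjusted p = 0.0526 to 0.105) and without the block (-1.5, edgeR adjusted p = 0.313). Its rise in wild-type slices was not called without the block (edgeR adjusted p = 0.0631) or the batch E mice (0.122). The count of 3 became 751 with no filter on low counts, 68 by DESeq2, 21 in the batch E mice alone, 5 without Mouse1522, 1 without Mouse1509 or Mouse1513, and 0 without the mouse block or with the choroid plexus list left out. Against wild-type mice given BD10-2, the response differed in 0 genes (0%) by edgeR's test, with 880 at an unadjusted p under 0.05 and 3 by DESeq2. That comparison rests on 2 mice given BD10-2 with both slices, so a p that misses the threshold does not show equal responses. Thy1, whose promoter drives the transgene of the T41B line, was in these wild-type slices at 374, 306, 366 and 403 CPM in sham and 303, 282, 338 and 384 CPM in stimulated slices, and neither Thy1 (-0.15) nor App (-0.07) was called.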

How the data were processed

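RNA sequencing was done on hippocampal slices, and the deposited values are gene-level expected counts from RSEM for 36 libraries. Expected counts are estimated read counts, not scaled between libraries. The submitters' processing notes name cutadapt 1.8.1, STAR 2.7.6a, RSEM 1.3.1, featureCounts 1.6 and SAMtools 1.11 and the builds GRCm38.p6 and mm10, without roles. The annotation release and strand setting are not given in the sources used here. Overlapping and antisense genes and multigene families are therefore uncertain.

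Counts were rounded. Of 55421 gene identifiers, 55154 matched a symbol. Libraries with the same mouse and stimulation (4 pairs, none of wild-type vehicle mice) were added, leaving 32 samples. filterByExpr (edgeR 4.0.16, R 4.3.3, minimum count 10) kept 19478 genes. edgeR's quasi-likelihood test with TMM factors (0.91 to 1.06) used all samples, the mouse as a block and a stimulation effect for each combination of genotype and treatment. P-values were adjusted by Benjamini-Hochberg over all genes, and a gene was called at an adjusted p under 0.05. CPM was computed with TMM. The SE given with a log2 fold change is its absolute value divided by the square root of the F of edgeR's test. Pairing rests on both slices coming from 1 animal. Deviations from group means correlated at 0.0224, 0.356, 0.151 and 0.411 within the 4 mice and at -0.364 to 0.158 between different mice. The sham slice of Mouse1509 correlated at 0.0275 with the stimulated slice of Mouse1524, above the value with its own. On simulated data for this comparison (19478 genes, 200 changed), 83% were recovered at a log2 change of 1 and 100% at 2, and 9 unchanged genes were called. The changed genes averaged over 1 CPM, the spread of a gene was set by the trend with level, and no batch difference was built in. These figures hold for those settings and do not give the recovery or error rate of the real comparison.

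The members and gene lists were chosen with earlier results of these data known. Named genes are up to 5 called genes per list by size of change, the 12 called genes with the largest change each way (mean of at least 1 CPM, the same way in 4 mice, no predicted genes), and 17 others picked by name; other list genes were named after their values were seen. Some genes counted in the lists are not reported here by name. Pooled ratios and floors (3 counts) cover counting error only. Alternatives were no mouse block, the 8 libraries alone, RLE factors, DESeq2 1.42.0, other count filters, each mouse or batch left out, and the choroid plexus list left out.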

Additional observations from a re-analysis of the deposited data

Results flagged for a closer look

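A single sample far from the other 3 of its group, by Dixon's criterion for 4 values at the 95% level, was found in 36 of 535 sets of values; chance gives about 1 in 20. Among sham slices, that of Mouse1522 was the highest for several inflammatory genes: Rsad2 at 5.03 CPM, Ifit1 at 6.04 CPM, Gbp2 at 4.02 CPM, Cebpd at 27.1 CPM, Csf1 at 48.5 CPM and Dusp2 at 1.82 CPM, with the cytokine list summing to 71.4 CPM. The sham slice of Mouse1524 was highest for Arc at 273 CPM, Sox9 at 84.8 CPM and Cxcl3 and Cdh3, both at 0.0578 CPM, and its excitatory neuron markers summed to 6150 CPM. The sham slice of Mouse1513 was lowest for Traf1 at 0.432 CPM, Plau at 3.53 CPM and Cass4 at 1.3 CPM. It was highest for Gpr34 at 7.42 CPM and for Mmp3 and Ccr7, both at 0.0721 CPM. The sham slice of Mouse1509 was lowest for Ptprc at 4.62 CPM and highest for Il10 and Prr32 at 0.0593 CPM and Cd300lb at 0.119 CPM. The values under 0.2 CPM each rest on 1 or 2 counts.

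Among stimulated slices, that of Mouse1524 was lowest for Ifit1 at 42.3 CPM, Lcn2 at 0.492 CPM and Mmp3 at 1.04 CPM. It was highest for Egr2 at 22.9 CPM, Aif1 at 3.2 CPM, Sox9 at 142 CPM and Pdgfra at 61.3 CPM, and its ependymal markers summed to 20.9 CPM. The stimulated slice of Mouse1509 was highest for Tgfb1 at 17.3 CPM, Nqo1 at 4.31 CPM and Trib3 at 4.82 CPM. That of Mouse1522 was highest for Sort1 at 598 CPM and Car9 at 0.821 CPM, and that of Mouse1513 was lowest for Cd68 at 8.26 CPM.

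The stimulation response differed between wild-type and T41B vehicle mice, by the difference of responses in edgeR, for Ttr (10.6 higher in wild-type mice on the log2 scale), Slc4a5 (7.02 higher) and Malt1 (-1.51). No T41B mouse is in batch E, so for Ttr and Slc4a5 the genotypes cannot be compared within that batch. With the batch E mice left out, the differences were -1.57 for Ttr, 6.51 for Slc4a5 and -1.64 for Malt1, and none of the 3 passed the test.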

How the results depend on the processing

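Of 220 genes named, 142 kept their direction and their call under all of the 13 alternatives that gave them a value, and 203 kept their direction. An alternative gave no value for a gene left out of the fit or without a DESeq2 adjusted p. Except where stated, the cause of a change was not tested; fits to fewer mice hold fewer samples.

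The slices were paired by mouse. With no replicate block, 2397 genes were called (798 lower) in place of 3906, the T41B comparison gave 0, and calls were 5 for chaperones, 3 for astrocyte identity, 2 for glutamate receptors, 1 for voltage-gated channels and 0 for mitochondrially encoded genes. The call was then lost for 21 named genes, among them Rel, Osm, Ccl6, Cx3cl1, Fosb, Grin2b, Slc17a7, Ptprc, Spi1 and Malt1.

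With 1 mouse left out, 2448 to 3030 genes were called, 885 to 1147 of them lower. The T41B comparison then gave 1 to 5. Calls were 4 to 7 for chaperones, 3 to 6 for astrocyte identity, 3 to 6 for glutamate receptors, 2 to 6 for channels, 4 to 15 for choroid plexus, 1 to 6 for mitochondrially encoded genes and 6 to 9 for MAP kinase phosphatases and Sprouty.

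Without the batch E mice 1269 genes were called (908 higher, 361 lower). Of the genes named, 37 lost their call there without a change of direction. Calls were 9 for matrix proteases, 7 for the integrated stress response, 3 for chaperones, 4 for astrocyte identity, 1 for glutamate receptors, 0 for channels, 1 for choroid plexus and 1 for mitochondrially encoded genes. In the batch E mice alone 1584 genes were called (1227 higher, 357 lower). Calls were 7 for the integrated stress response, 4 for chaperones, 1 for astrocyte identity, 2 for glutamate receptors, 1 for channels, 3 for mitochondrially encoded genes and 5 for MAP kinase phosphatases and Sprouty, and the T41B comparison gave 21.

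With the 8 libraries alone, calls were 12 for channels and 3 for choroid plexus. Arc, Il33, Bst2, Timp2, Sod2, Trem2, Serpina3n and Mbp gained a call there. DESeq2 gave 8 for choroid plexus, 68 for the T41B comparison and 3 for that with BD10-2. No filter on low counts gave 11 for channels, 13 for mitochondrially encoded genes, 751 for the T41B comparison and 59 for that with BD10-2. With the choroid plexus list left out the T41B comparison gave 0.

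Among the named genes that were called, the direction turned only without the batch E mice. The log2 fold change there was -2.03 for Ttr, -0.88 for Clic6, -0.11 for Kl, -1.32 for Wdr86 and -0.021 for Lama5. Over all genes, 15 of those called higher and 0 of those called lower had the opposite sign without the batch E mice. Among the named genes that were not called, the direction turned for 12. With 1 mouse left out the log2 fold change ran from -0.054 to 0.197 for Fos, -0.23 to 0.12 for Npas4, -0.16 to 0.014 for Bdnf, -0.16 to 0.47 for Il1r2, -0.14 to 0.091 for Il18, -0.11 to 0.15 for Cxcl14, -0.015 to 0.13 for Homer1, -0.13 to 0.012 for Grin1, -0.36 to 0.13 for C3 and -0.027 to 0.13 for Mog. Without the batch E mice it was 0.31 for Npas4, 0.11 for Il18, 0.074 for Sall1 and 0.29 for C3. In the batch E mice alone it was -0.19 for Fos, -0.15 for Cxcl14 and 0.017 for Vegfa. For C3 it was 0.026 with no replicate block and 0.0051 with no filter.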
